A study of Saccharomyces cerevisiae with 6 samples.

Results

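The comparison described here sets one tra1 allele of budding yeast (Saccharomyces cerevisiae), tra1 P3408A, against another, tra1 S3463A. For each gene the log2 ratio of mutant over TRA1 signal on array 1 of tra1 S3463A was subtracted from that on array 1 of tra1 P3408A, the same was done for the array 2 pair, and the 2 differences were averaged. All 6256 genes that the arrays measure belong to it, out of 6256 in the series, and 6119 of them had a value on every array and were tested. The remaining 137 were not tested, and the 5 of these that still had a difference lay between -0.14 and 0.10 on the log2 scale.

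The 3 mutant strains of the series were each hybridised against 1 reference strain on 2 two-colour Agilent arrays, 6 arrays in all, and 4 of them enter this difference. The tra1 P3408A strain was CY1507 and the tra1 S3463A strain CY1514; the reference, CY1524, carried myc-TRA1_SB. In all of these strains the chromosomal TRA1 gene was disrupted (TRA1::Tn10LUK), and the cells lived on a myc-tagged TRA1 or tra1 gene on the plasmid YCplac111, a low-copy centromeric vector with the LEU2 marker. The reference therefore also depends on a tagged, plasmid-borne gene. The mutant RNA was in the Cy5 dye on array 1 and in Cy3 on array 2 of each allele, so the pair of arrays with the same number share a dye orientation. The labels call the arrays of an allele biological replicates but do not say how the cultures were made, and each allele is known here from 1 named strain. Medium, growth phase and mating type are not given in the sources used here.

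Tra1 is a very large subunit of 2 histone acetyltransferase complexes, SAGA and NuA4, in which it receives contacts from DNA-bound transcription activators. It belongs to the family of kinases related to phosphatidylinositol 3-kinase (PI3K), yet its PI3K-like domain lacks the residues needed for catalysis. In tra1 P3408A a proline is replaced by alanine and in tra1 S3463A a serine is replaced by alanine, and the study asked what the PI3K domain does in transcription. SAGA and NuA4 act at many inducible genes of yeast, such as those for phosphate uptake and for amino acid synthesis.

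A label conflict touches every value below. The array titled as array 1 of tra1 S3463A has a channel description that names the tra1_SRR3413 strain, the third mutant of the series. Its title was followed. Differences of many named genes, though not of all, and many list medians are given without it too. They come from a fit of the other 5 arrays in which the 95% interval of the median gene reached 0.49 to either side. Where no such value is given, the difference includes that array. On array 2 of tra1 S3463A, and on array 2 of tra1_SRR3413, which enters the same fit, the description of 1 channel names another dye than its label field, and the label field was followed. The 3 slides held 2 arrays each: array 2 of tra1 P3408A shared a slide with array 1 of tra1 S3463A, and the other arrays of both alleles lay on separate slides with tra1_SRR3413. The extraction times in the file headers fell on a separate day for each slide, so that slide and day of extraction cannot be told apart. Signals were well above background in both dyes for 99.2% to 99.6% of gene spots per array, and spots left out as outliers made up 1.27% and 8.02% on the tra1 P3408A arrays, against 5.27% and 0.857% on the tra1 S3463A arrays.

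TRA1 itself had a ratio of 0.83 on array 1 and 1.21 on array 2 of tra1 P3408A, against 0.73 and 1.75 on those of tra1 S3463A. All 4 arrays lay above the reference, and the alleles overlapped. The difference was -0.22 (95% interval -0.68 to 0.24), and -0.39 (-1.01 to 0.23) without the array of conflicting label. The probe reads the transcript of either plasmid-borne allele, so it does not check which substitution a strain carries. LEU2, the marker of the plasmid and the gene for an enzyme of leucine synthesis, differed by 0.02 between the alleles (95% interval -0.26 to 0.30), and URA3, a gene of pyrimidine synthesis, by 0.11 (-0.14 to 0.36). LEU2 took the opposite sign, -0.09, without the array of conflicting label, and URA3 was at 0.18.

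No gene passed the test of a difference between tra1 P3408A and tra1 S3463A. In limma, with Benjamini-Hochberg adjustment over the 6119 genes and a threshold of 0.05, 0 genes (0%) were lower and 0 (0%) were higher in tra1 P3408A, and the smallest adjusted p was 0.902. At an unadjusted p under 0.05, 39 genes (0.637%) were lower and 49 (0.801%) were higher. In the same fit, tra1_SRR3413 minus tra1 P3408A also gave 0 genes after adjustment but 742 (12.1%) at the unadjusted threshold, and tra1_SRR3413 minus tra1 S3463A gave 0 and 502 (8.20%). These 3 comparisons share arrays.

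The intervals give the range of differences that the fit allows for each gene, without adjustment for the number of genes tested. The fit pooled the spread of all arrays, those of tra1_SRR3413 included, within array number as a block. It also drew on the spread of other genes (2 residual and 3.50 prior degrees of freedom). The widths therefore depend on this model, and not only on the 2 pairs of arrays of a gene. The adjusted test could miss differences larger than these widths. The 95% interval of a gene's difference reached 0.29 log2 units to either side in the median gene, and between 0.24 and 0.56 from the 5th to the 95th percentile. It lay wholly within 2-fold in both directions for 5968 genes (97.5%) and within 1.5-fold for 5053 genes (82.6%). These are intervals gene by gene, and they do not show that the alleles act alike. The differences themselves had a median of -0.01, with 5th and 95th percentiles of -0.26 and 0.25. A difference of 1.5-fold or more was measured for 24 genes, 6 lower (0.0981%) and 18 higher (0.294%), and for 7 of these 24 the 2 pairs of arrays had opposite signs. Only 1 gene, the mitochondrial intron gene AI1, reached 2-fold.

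The pairs of arrays did not rank genes alike. Across the 6119 genes, the array 1 differences had an SD of 0.150 and the array 2 differences an SD of 0.335, and Pearson's r between them was -0.30 (Spearman's rho -0.26), a description over genes that are not independent. The 2 pairs had the same sign for 2543 genes (41.6%), 1391 lower in tra1 P3408A in both and 1152 higher in both. Both tra1 P3408A arrays lay below both tra1 S3463A arrays for 464 genes (7.58%) and above both for 306 genes (5.00%). For 51 genes the alleles lay on opposite sides of the TRA1 reference on every array.

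**Figure D1:**
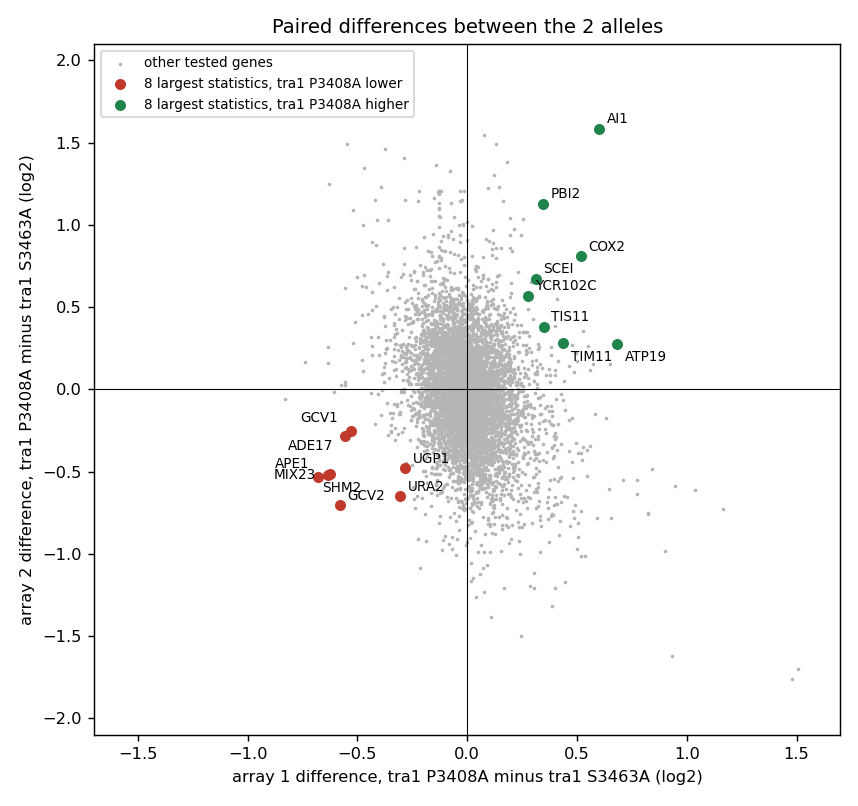
Each point is 1 of 6119 genes, with the array 1 difference, tra1 P3408A minus tra1 S3463A (log2), on the horizontal axis and the array 2 difference on the vertical axis; the 16 named genes have the largest moderated statistics in each direction. The cloud is wider along the array 2 axis (SD 0.335, against 0.150), and the 16 genes lie where both pairs have the same sign.

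The 16 genes described next are the 8 with the largest moderated limma statistic in each direction. None of the 16 passed the test: each had an adjusted p of 0.902 in limma. They were picked for these differences, so their values show the edge of the distribution and not a set of responding genes. Their sign was kept by 16 of 16 without the array of conflicting label. That fit reused the other arrays on which they were picked, so it is not a separate check.

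Of the 8 lowest, 3 encode enzymes that make and use one-carbon units from glycine and serine. GCV2, the glycine decarboxylase subunit of the glycine cleavage complex, had ratios of -2.21 and -2.17 on arrays 1 and 2 of tra1 P3408A, against -1.63 and -1.46 on those of tra1 S3463A. Its difference was -0.64 (95% interval -0.92 to -0.36; unadjusted p 0.00161 in limma). GCV1, the aminomethyltransferase subunit of the same complex, had -1.76 and -1.94 in tra1 P3408A, against -1.24 and -1.69 in tra1 S3463A, a difference of -0.39 (-0.68 to -0.10). Both genes were below the reference on all 4 arrays, and their tra1 P3408A values did not overlap those of tra1 S3463A. SHM2, the cytosolic serine hydroxymethyltransferase, had -2.35 and -2.33 in tra1 P3408A, against -1.73 and -1.81 in tra1 S3463A, and a difference of -0.57 (-0.87 to -0.27). On the slide that held 1 array of each allele, the dyes were not balanced and the tra1 S3463A array was the one of conflicting label. The differences there were -0.54 for GCV2, -0.70 for GCV1 and -0.60 for SHM2. Their sign was already given, since the alleles did not overlap in these genes. The differences were, without the array of conflicting label, -0.64 (-1.13 to -0.14) for GCV2, -0.26 (-0.72 to 0.20) for GCV1 and -0.46 (-0.95 to 0.03) for SHM2.

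The list of one-carbon genes held 10 tested members, of which 0 passed the test. Of these, 3 (30.0%) lay below tra1 S3463A on every array, against 7.58% of all genes, and 0 lay above, against 5.00%. The 3 are GCV1, GCV2 and SHM2. Its median difference was -0.20, against -0.01 over all genes, with medians of -0.18 in the array 1 pair and -0.39 in the array 2 pair, and it was -0.32 without the array of conflicting label. GCV3, the lipoate-carrying subunit, had ratios of -1.32 and -1.57 in tra1 P3408A, against -0.94 and -1.57 in tra1 S3463A, with a saturated spot on 2 of these arrays. The rule for describing a list asked for a median beyond 0.25 or 2 members past the test, and among the lists only the mitochondrially encoded genes met it, by their median. That list was added after its values were seen, so the lists given any detail here, and the members named in them, were taken up after their values were seen.

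ADE17 had ratios of -4.01 and -3.57 in tra1 P3408A, against -3.45 and -3.28 in tra1 S3463A. It encodes the bifunctional enzyme of the last steps to inosine monophosphate in purine synthesis. The gene was far below the reference on all 4 arrays, and the difference between the alleles was -0.42 (-0.72 to -0.12), or -0.36 (-0.87 to 0.15) without the array of conflicting label. Among 12 tested genes of de novo purine synthesis and its regulators, 0 passed the test, 5 (41.7%) lay below tra1 S3463A on every array, against 7.58% of all genes, and 0 lay above, against 5.00%. The 5 were ADE17, ADE12, ADE4, ADE13 and ADE1. ADE4, which encodes the enzyme of the committed step, had -1.16 and -1.16 in tra1 P3408A, against -0.85 and -1.02 in tra1 S3463A, a difference of -0.22 (-0.49 to 0.04). ADE2 differed in opposite directions in the 2 pairs, with -1.48 and -1.58 in tra1 P3408A, against -1.02 and -2.21 in tra1 S3463A. The median ratio of the list was -1.40 in tra1 P3408A and -1.27 in tra1 S3463A, and the median difference was -0.15, or -0.12 without the array of conflicting label.

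The other 4 genes with large negative statistics have separate roles. APE1, the vacuolar aminopeptidase I carried to the vacuole by selective autophagy, had -3.05 and -2.15 in tra1 P3408A, against -2.38 and -1.62 in tra1 S3463A. Both pairs differed in the same direction, by -0.60 on average (-0.86 to -0.35; unadjusted p 0.00141 in limma), yet the groups overlapped. On the shared slide the APE1 difference was 0.22, of the opposite sign, and with slide as a block it was -0.03. Without the array of conflicting label it was -0.53 (-0.99 to -0.07). UGP1, which makes UDP-glucose, had -0.89 and -0.60 in tra1 P3408A, against -0.61 and -0.12 in tra1 S3463A, and its shared-slide difference was 0.01. With all arrays it was -0.38, with slide as a block -0.18, and without the array of conflicting label -0.50 (-0.97 to -0.03).

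MIX23 and URA2 were below the reference on both arrays of tra1 P3408A and above it on both arrays of tra1 S3463A. MIX23 (YBL107C), a protein of the mitochondrial intermembrane space, had -0.20 and -0.40 in tra1 P3408A, against 0.44 and 0.13 in tra1 S3463A, a difference of -0.58 (-0.85 to -0.31). URA2, the first enzyme of pyrimidine synthesis, had -0.14 and -0.20 in tra1 P3408A, against 0.16 and 0.45 in tra1 S3463A, a difference of -0.48 (-0.79 to -0.16). The differences without the array of conflicting label were -0.58 for MIX23 (-1.07 to -0.09) and -0.56 for URA2 (-1.08 to -0.05). Of 10 tested pyrimidine genes, 0 passed the test, 2 (20.0%) lay below on every array (URA2 and PPR1, the pathway's activator), against 7.58% of all genes, and 1 of the 10 lay above (URA10), against 5.00%. Their median difference was -0.13, or -0.17 without the array of conflicting label. Against array 2 of tra1 S3463A alone, 4 of the 10 (40.0%) lay below on both tra1 P3408A arrays, where 40.3% of all genes did.

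At the other end, 5 of the 8 genes encode mitochondrial proteins. COX2, the mitochondrially encoded second subunit of cytochrome c oxidase, had ratios of 1.34 and 0.28 in tra1 P3408A, against 0.82 and -0.53 in tra1 S3463A, and a difference of 0.66 (0.26 to 1.07). AI1, a reverse transcriptase encoded in an intron of COX1 and hard to separate from that transcript by probe, had 1.04 and 0.14 in tra1 P3408A, against 0.44 and -1.44 in tra1 S3463A, a difference of 1.09 (0.37 to 1.82). SCEI, an intron-encoded endonuclease of the mitochondrial genome, had 0.71 and -0.35 in tra1 P3408A, against 0.39 and -1.02 in tra1 S3463A. All 3 had their lowest value on array 2 of tra1 S3463A, and the alleles overlapped. In tra1 P3408A and in tra1_SRR3413, array 2 also lay below array 1 for all 3. The tra1_SRR3413 ratios were 1.38 and -0.31 for COX2, 1.02 and -1.09 for AI1, and 0.69 and -0.71 for SCEI. On the shared slide each changed sign, to -0.54 for COX2, -0.29 for AI1 and -0.74 for SCEI. That slide sets array 2 of tra1 P3408A (Cy3) against array 1 of tra1 S3463A (Cy5), so array number and dye differ there too. That slide leaves out array 2 of tra1 S3463A; with it kept and the array of conflicting label left out, the differences were 0.65 for COX2 (0.03 to 1.28), 1.28 for AI1 (0.34 to 2.22) and 0.59 for SCEI (0.08 to 1.10).

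A pair of nuclear genes for small ATP synthase subunits stood with them. ATP19 had 1.23 and 0.28 in tra1 P3408A, against 0.55 and 0.01 in tra1 S3463A, and TIM11 had 0.46 and -0.14 in tra1 P3408A, against 0.03 and -0.43 in tra1 S3463A. The differences were 0.48 (0.14 to 0.82) for ATP19 and 0.36 (0.08 to 0.65) for TIM11. Both took the opposite sign on the shared slide, -0.26 for ATP19 and -0.17 for TIM11, so the direction of all 5 mitochondrial genes depended on which arrays were set against each other. Without the array of conflicting label the differences were 0.28 (-0.18 to 0.75) for ATP19 and 0.25 (-0.22 to 0.72) for TIM11.

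The last 3 of the 16 kept their sign on the shared slide. PBI2, an inhibitor of the vacuolar proteinase B, had 0.64 and 0.53 in tra1 P3408A, against 0.30 and -0.60 in tra1 S3463A, a difference of 0.74 (0.17 to 1.30) that was 0.23 on that slide. TIS11, which binds and destabilises messenger RNAs when iron is scarce, had -0.02 and 0.14 in tra1 P3408A, against -0.37 and -0.24 in tra1 S3463A, a difference of 0.37 (0.13 to 0.60). YCR102C had -0.74 and -0.06 in tra1 P3408A, against -1.02 and -0.64 in tra1 S3463A, a difference of 0.42 (0.10 to 0.75). Of these, PBI2 and TIS11 did not overlap between the alleles, which already gave their sign on the shared slide. Without the array of conflicting label the differences were 0.91 (0.17 to 1.66) for PBI2, 0.38 (-0.08 to 0.85) for TIS11 and 0.47 (-0.06 to 1.01) for YCR102C.

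**Figure D2:**
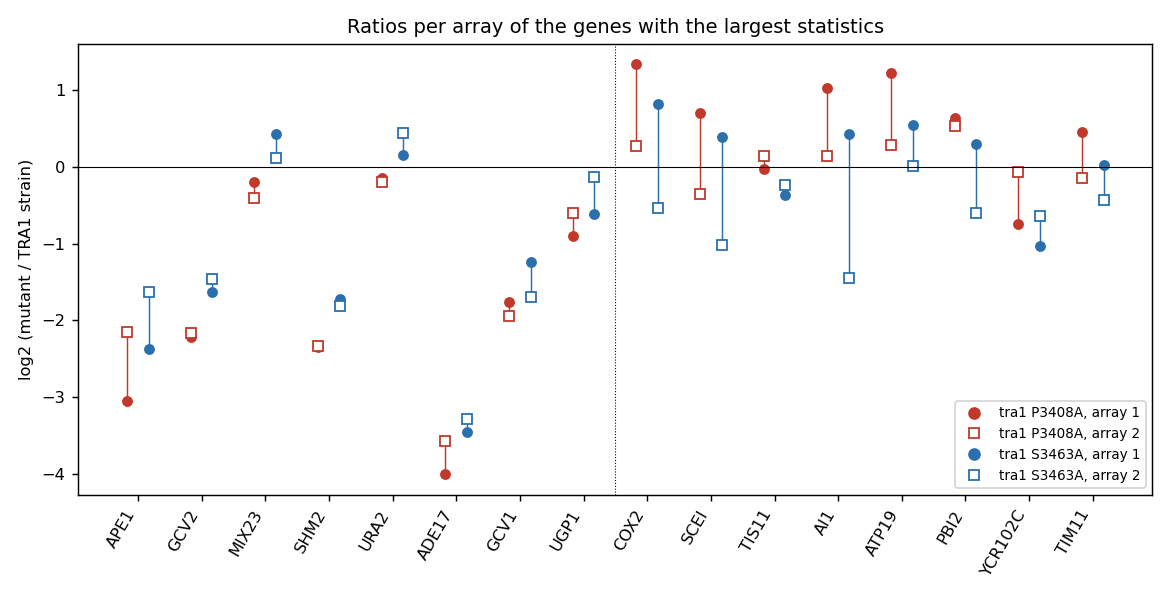
Each point is the log2 ratio of mutant over TRA1 signal of 1 gene on 1 array, with tra1 P3408A in red left of tra1 S3463A in blue, filled circles for array 1 and open squares for array 2; a line joins the 2 arrays of an allele. The 8 genes left of the dotted line had tra1 P3408A lower and the 8 right of it higher; AI1 and SCEI show the widest gaps between the arrays of tra1 S3463A among those on the right, and none of the 16 passed the test.

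The genes farthest from the reference allow the alleles to be compared where both have large ratios. The 12 genes with the lowest mean ratio over the 4 arrays, a choice that does not use the difference, had ratios between -4.84 and -1.62 on every array. Their differences ran from -0.60 (APE1) to 0.33 (IMD2), with 7 negative and 5 positive. For 7 of the 12 the interval lay within 1.5-fold in both directions, and for 10 within 2-fold.

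IMD2, the inducible inosine monophosphate dehydrogenase of GTP synthesis, had -4.16 and -3.37 in tra1 P3408A, against -3.80 and -4.39 in tra1 S3463A. The alleles changed places between the 2 pairs, and the difference of 0.33 had an interval of -0.58 to 1.24 (0.66, -0.43 to 1.75, without the array of conflicting label). YAR075W, a near-copy of an IMD gene whose probe may read IMD2 transcripts, followed it, with -4.60 and -3.59 in tra1 P3408A, against -3.97 and -4.84 in tra1 S3463A. HIS4, a histidine synthesis gene under general amino acid control, had -3.08 and -2.45 in tra1 P3408A, against -2.89 and -2.03 in tra1 S3463A. Its difference was -0.31 (-0.58 to -0.04), with an adjusted p of 0.902 in limma, and it was 0.44 on the shared slide and -0.38 (-0.86 to 0.09) without the array of conflicting label. SPL2, a small protein that restrains low-affinity phosphate uptake, had -3.06 and -2.55 in tra1 P3408A, against -3.00 and -2.78 in tra1 S3463A, a difference of 0.08 (-0.28 to 0.44), or 0.10 without the array of conflicting label.

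Among the remaining genes of the lowest 12, differences lay between -0.24 and 0.25 for the 5 named here. SNZ1, for vitamin B6 synthesis, had -2.44 and -2.58 in tra1 P3408A, against -2.24 and -2.30 in tra1 S3463A. Its tra1 P3408A values lay below those of tra1 S3463A on every array, with a difference of -0.24 (-0.54 to 0.06). The peroxiredoxin gene TSA2 differed by 0.08 (-0.20 to 0.35), and BDH2, a dehydrogenase gene, by -0.10 (-0.46 to 0.26). AAD4, of the aryl-alcohol dehydrogenase family whose close copies may share its probe, differed by -0.09 (-0.49 to 0.30), and HAB1 by 0.25 (-0.09 to 0.59). Leaving out the array of conflicting label, these 5 kept their sign, and the largest difference was that of BDH2, at -0.32 (-0.79 to 0.14).

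At the other extreme, the 12 genes with the highest mean ratio had ratios between 0.74 and 2.04, differences from -0.32 (ATF2) to 0.19 (PCL1), and 0 of 12 intervals that left out 0. SCW10, a cell wall glucanase-like protein, had 1.44 and 1.78 in tra1 P3408A, against 1.47 and 1.72 in tra1 S3463A, and differed by 0.01 (-0.23 to 0.26). RNR1, the large subunit of ribonucleotide reductase, had 1.55 and 1.61 in tra1 P3408A, against 1.63 and 1.37 in tra1 S3463A, and differed by 0.08 (-0.33 to 0.49). Both genes overlapped between the alleles. The hexose transporter HXT4 had 2.03 and 0.92 in tra1 P3408A, against 1.19 and 1.41 in tra1 S3463A, and its interval of -0.77 to 1.12 reached past 2-fold upward. FET3, the ferroxidase of iron uptake, differed by 0.09 (-0.30 to 0.47), PDR12, a weak acid exporter, by -0.12 (-0.46 to 0.22), and RRN3, an initiation factor of RNA polymerase I, by -0.14 (-0.49 to 0.21). Without the array of conflicting label, FET3 differed by -0.13 and HXT4 by -0.08, both of the opposite sign, and so did DBP2 (-0.05) and YHR033W (-0.12), while the other 8 of the 12 kept theirs. The largest of these differences was that of ATF2, an alcohol acetyltransferase, at -0.54 (-1.10 to 0.01).

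**Figure D3:**
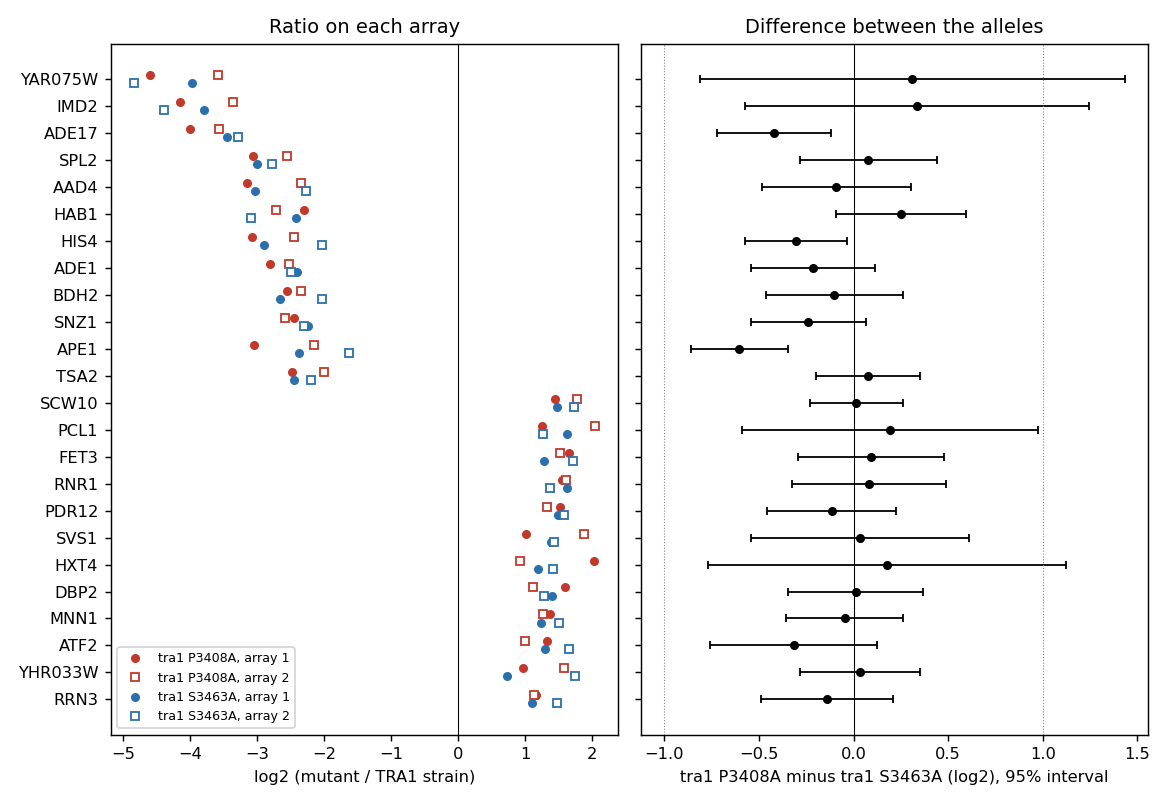
The left panel gives the log2 ratio of mutant over TRA1 signal on each array for the 12 genes of lowest and the 12 of highest mean ratio, tra1 P3408A in red and tra1 S3463A in blue, circles for array 1 and open squares for array 2. The right panel gives the difference between the alleles with its 95% interval and dotted lines at 2-fold; 21 of the 24 intervals lie within those lines, and those of YAR075W, IMD2 and HXT4 pass them upward.

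PHO5 and ADH2 are classic genes of chromatin-dependent induction, by phosphate starvation and by loss of glucose. PHO5, an acid phosphatase, had -2.23 and -2.37 in tra1 P3408A, against -2.39 and -1.52 in tra1 S3463A, a difference of -0.34 (-0.96 to 0.27). ADH2, which oxidises ethanol, had -1.38 and -1.51 in tra1 P3408A, against -1.57 and -1.75 in tra1 S3463A, a difference of 0.21 (-0.05 to 0.48). Leaving out the array of conflicting label, these were -0.64 (-1.36 to 0.07) for PHO5 and 0.19 (-0.29 to 0.67) for ADH2. The tra1 P3408A values of ADH2 lay above those of tra1 S3463A on every array, while those of PHO5 overlapped. Of 18 genes of the phosphate regulon, 0 passed the test, 0 lay below on every array, against 7.58% of all genes, and 2 (11.1%) lay above (PHM8 and GIT1), against 5.00%. Their median difference was -0.07, and -0.08 without the array of conflicting label. PHO84, the high-affinity phosphate transporter, had -2.58 and -2.07 in tra1 P3408A, against -2.25 and -1.84 in tra1 S3463A, a difference of -0.28 (-0.55 to -0.01).

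The genes of the complexes that contain Tra1 had mostly small ratios, apart from TRA1 itself. Of 21 tested genes listed under SAGA and related assemblies, 0 passed the test, 3 (14.3%) lay below tra1 S3463A on every array (TAF12, SGF73 and TAF6), against 7.58% of all genes, and 0 lay above, against 5.00%. Their median difference was -0.01, as over all genes (-0.03 without the array of conflicting label), and 18 of the 21 intervals lay within 1.5-fold. GCN5, the acetyltransferase of SAGA, had 0.10 and -0.02 in tra1 P3408A, against 0.16 and -0.07 in tra1 S3463A. Of 12 NuA4 genes, 0 passed. On every array, 1 (8.33%) lay below (EAF1), against 7.58% of all genes, and 1 (8.33%) above (EAF6), against 5.00%. Their median difference was -0.06 (-0.02 without the array of conflicting label). ESA1, the acetyltransferase of NuA4, differed by 0.09 (-0.15 to 0.33). Among 11 genes of PI3K-related kinases, lipid kinases and the chaperone complex that serves them, 0 passed and the median difference was -0.07 (-0.02 without that array).

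In energy metabolism the values depended on the pair of arrays. Of 37 tested nuclear genes of the respiratory chain and ATP synthase, 0 passed the test. On every array, 14 (37.8%) lay above tra1 S3463A, against 5.00% of all genes, and 0 below, against 7.58%. The median difference was 0.15, made up of 0.24 in the array 1 pair and -0.01 in the array 2 pair, and it was 0.03 without the array of conflicting label. With only array 2 of tra1 S3463A to compare with, 18 of the 37 (48.6%) lay above it on both tra1 P3408A arrays, against 35.6% of all genes. ATP16, the delta subunit of ATP synthase, had 0.35 and 0.39 in tra1 P3408A, against 0.07 and -0.10 in tra1 S3463A, a difference of 0.38 (0.04 to 0.73). SDH3, a membrane subunit of succinate dehydrogenase, had 0.40 and 0.51 in tra1 P3408A, against 0.16 and 0.12 in tra1 S3463A, a difference of 0.32 (0.03 to 0.61). QCR2, a core subunit of the cytochrome bc1 complex, went the other way on average, with 0.30 and 0.52 in tra1 P3408A, against 0.00 and 1.14 in tra1 S3463A. These are short genes, with a median length of 468 bp, and gene length moved with the difference as described below.

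The 20 tested mitochondrially encoded genes, listed after their values were seen, had a median difference of 0.37, with 0.10 in the array 1 pair and 0.68 in the array 2 pair. The difference was positive for 18 of the 20, OLI1 with saturated spots among them, and 0 passed the test. On every array, 0 lay above, against 5.00% of all genes, and 0 below, against 7.58%. COX1 had 0.87 and 0.41 in tra1 P3408A, against 0.80 and -1.14 in tra1 S3463A, and ATP6 had 0.94 and 0.09 in tra1 P3408A, against 0.82 and -1.21 in tra1 S3463A. Array 2 of tra1 S3463A was the lowest in both, and array 2 of tra1 P3408A also lay below its array 1. Median ratios of the list were 0.38 and -0.26 on the tra1 P3408A arrays, against 0.34 and -0.79 on those of tra1 S3463A. On the shared slide, which sets array 2 of tra1 P3408A against array 1 of tra1 S3463A, the median difference was -0.73. The median difference was 0.56 without the array of conflicting label. Leaving out OLI1, the median over 19 genes was 0.37 and 17 were positive.

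Methionine and sulfate assimilation genes had a median difference of 0.19 over 20 tested members, with 0 past the test, 4 (20.0%) above tra1 S3463A on every array, against 5.00% of all genes, and 0 below, against 7.58%. Of the 4, MET17 had saturated spots on all 4 arrays; leaving it out, 3 of 19 (15.8%) lay above and the median was 0.18. The median over the 20 was 0.19 without the array of conflicting label. Against array 2 of tra1 S3463A alone, 6 of the 20 (30.0%) lay above on both tra1 P3408A arrays, where 35.6% of all genes did. Below it lay 4 (20.0%), where 40.3% of all genes did. MET14, which encodes a kinase of sulfate activation, had 0.24 and 0.81 in tra1 P3408A, against 0.00 and -0.13 in tra1 S3463A, a difference of 0.59 (-0.05 to 1.23). MET5, a subunit of sulfite reductase, had 0.50 and 1.05 in tra1 P3408A, against 0.21 and 0.49 in tra1 S3463A, a difference of 0.43 (0.05 to 0.80). In both alleles the ratios of this list also differed between the dye orientations, with medians of -0.18 on array 1 and 0.56 on array 2 of tra1 P3408A, against -0.16 and 0.23 on those of tra1 S3463A.

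Genes of protein folding, of ribosome biogenesis and of the cytosolic ribosome had paired median differences between -0.07 and 0.04. The median of 65 mitochondrial ribosomal protein genes was 0.06, and -0.07 without the array of conflicting label. Of 26 tested Hsf1 chaperone genes, 0 passed the test, 2 (7.69%) lay below on every array (HSC82 and SSE1), against 7.58% of all genes, and 1 (3.85%) above, against 5.00%, with a median difference of -0.07 (-0.09 without the array of conflicting label). SSA4, a stress-induced Hsp70, had -2.34 and -1.60 in tra1 P3408A, against -2.19 and -1.42 in tra1 S3463A, a difference of -0.17 (-0.42 to 0.08). Of 48 ribosome biogenesis genes, 0 passed, 9 (18.8%) lay below on every array and 0 above, against 7.58% and 5.00% of all genes. Their median difference was -0.02 (0.01 without the array of conflicting label). Against array 2 of tra1 S3463A alone, 18 of the 48 (37.5%) lay below on both tra1 P3408A arrays, where 40.3% of all genes did. The 133 cytosolic ribosomal protein genes had a median difference of 0.04, with 9 (6.77%) below on every array and 3 (2.26%) above, both under the shares of all genes. Their median was -0.35 on the shared slide, 0.01 without the array of conflicting label, and 0.03 over the 121 genes that were not saturated on all 4 arrays. Branched-chain amino acid genes had a median of -0.17 over 11 members, which was 0.01 in the array 1 pair, -0.38 in the array 2 pair and -0.25 without the array of conflicting label. ILV5 shows the gap: -0.29 and -0.24 in tra1 P3408A, against -0.31 and 0.93 in tra1 S3463A.

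Several of the most abundant transcripts could not be compared. A saturated spot in either dye was present on all 4 arrays for 60 tested genes, and 13 of 24 glycolysis and fermentation genes were among them, including the pyruvate decarboxylase PDC1, the alcohol dehydrogenase ADH1 and the pyruvate kinase CDC19. Their ratios are bounded by the scanner, and the differences of these glycolytic genes are not given singly. The same limit applies to 12 of 133 cytosolic ribosomal protein genes and to the mitochondrial ATP synthase gene OLI1, which stay in the medians of their lists unless said otherwise. Pheromone and mating genes, sporulation genes and every other list had 0 members past the test. Over all 46 lists the median difference lay between -0.20 and 0.37, and between -0.20 and 0.19 when the mitochondrially encoded list is left out.

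**Figure D4:**
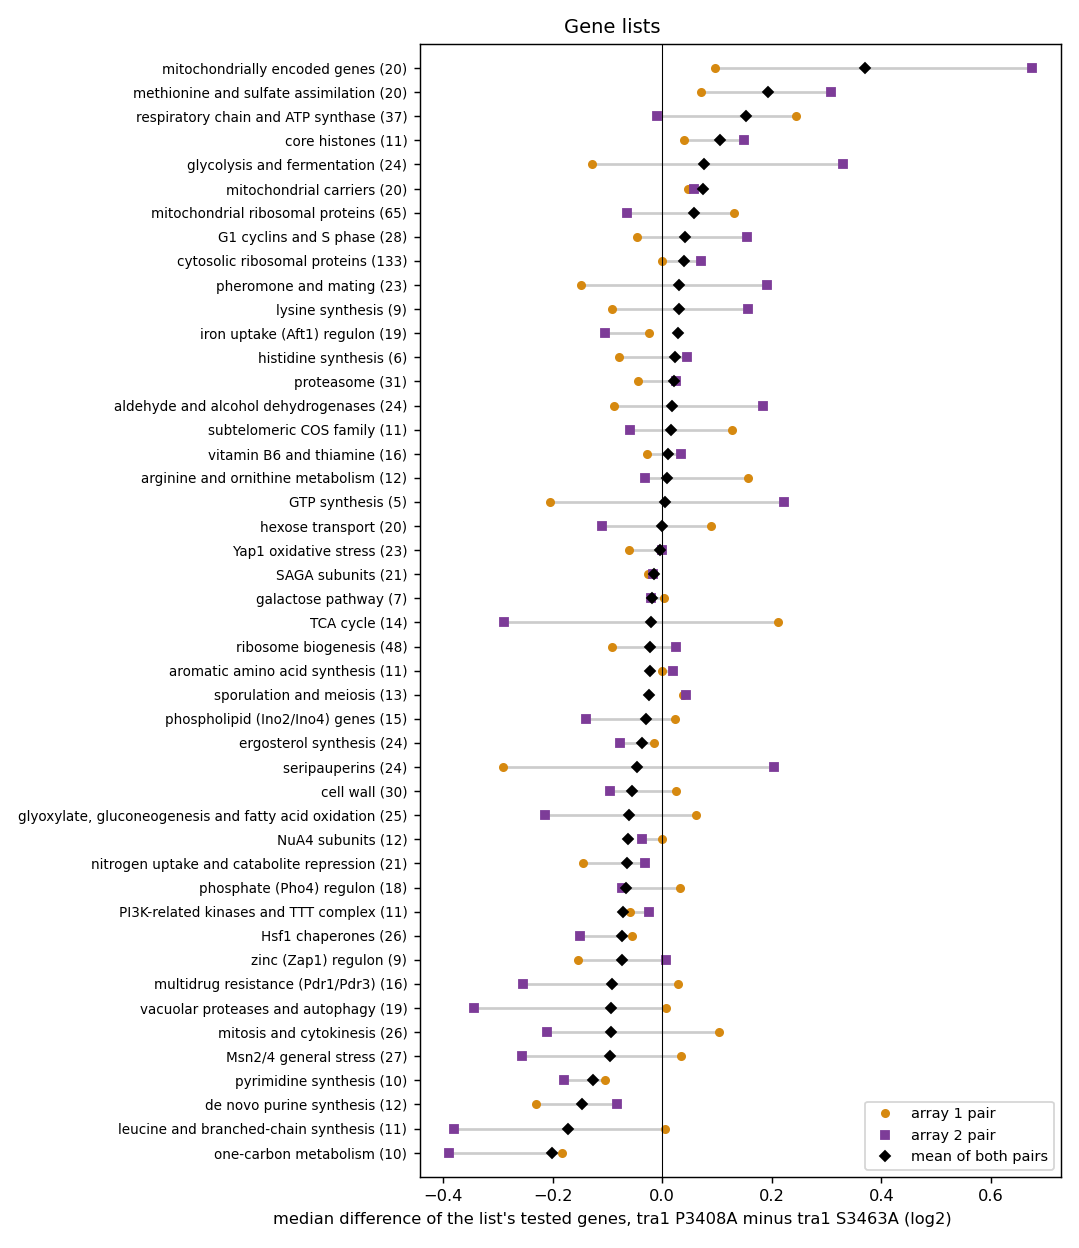
For each of 46 gene lists (tested members in brackets), the black diamond is the median difference, tra1 P3408A minus tra1 S3463A (log2), and the circle and square are the medians of the array 1 and array 2 pairs. The mitochondrially encoded list at the top, chosen after its values were seen, runs from 0.10 to 0.68, and in many lists the 2 pairs fall on opposite sides of 0.

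Gene length moved with the difference. Over the 5629 tested genes with an annotated length (92.0%), the median difference was 0.06 for genes of up to 500 bp and -0.08 for genes of 2001 to 3000 bp. Spearman's rho between difference and length was -0.35, with -0.19 in the array 1 pair and -0.25 in the array 2 pair, again a description over genes that share arrays. The tra1 S3463A arrays had the wider range. In genes of up to 500 bp the median ratio was 0.01 and -0.02 on the tra1 P3408A arrays, against -0.05 and -0.14 on those of tra1 S3463A, and in genes over 3000 bp it was 0.12 and 0.12, against 0.18 and 0.22. The part of length in the results on any gene group was not tested.

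**Figure D5:**
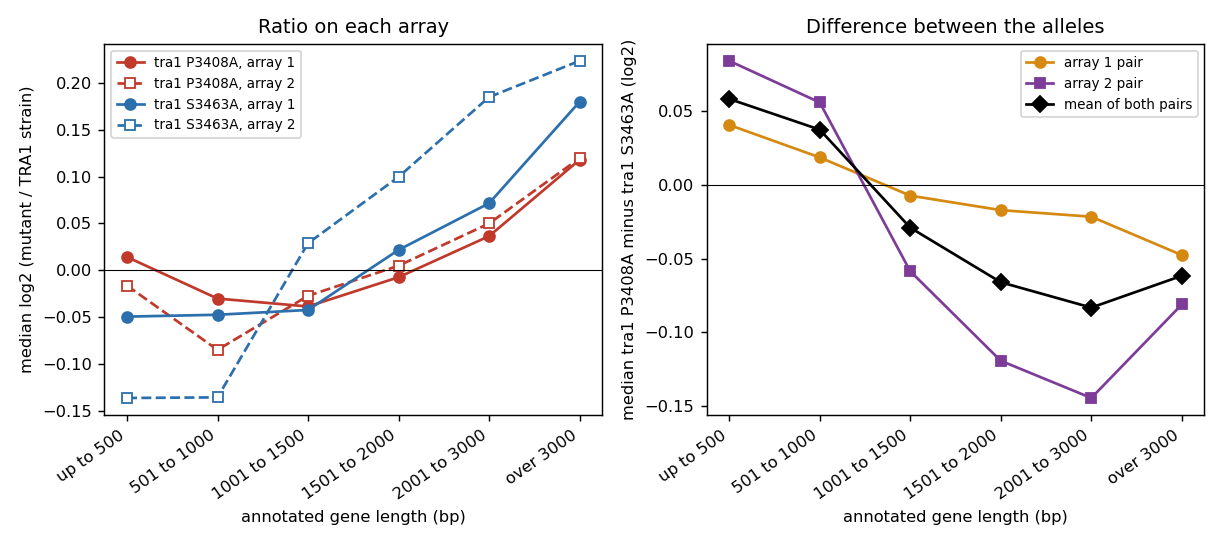
The left panel gives the median log2 ratio of mutant over TRA1 signal in 6 classes of annotated gene length (bp), tra1 P3408A in red and tra1 S3463A in blue; the right panel gives the median difference between the alleles, for each pair of arrays and their mean. Array 2 of tra1 S3463A has the steepest line, and the mean difference is 0.06 in the shortest class and -0.08 at 2001 to 3000 bp.

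The count of 0 genes held when the array with the conflicting label was left out, with 64 genes at an unadjusted p under 0.05 in limma, and when it was counted with tra1_SRR3413, with 142. With slide as a block instead of array number, 0 genes passed and 418 had an unadjusted p under 0.05. In that fit 8 of the 8 low genes and 3 of the 8 high genes among the 16 kept their direction, APE1 at -0.03 against -0.60 and UGP1 at -0.18 against -0.38 with array number as the block. Without 1 array of tra1 P3408A the count was no longer 0: without array 1, 1287 genes were lower and 1061 higher, and without array 2, 60 were lower and 87 higher. In both of these fits the lone array is assumed to vary as the other alleles did, and 1464 of the 2348 genes called without array 1, and 112 of the 147 called without array 2, had opposite signs in the 2 pairs of the full data.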

How the data were processed

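RNA of each mutant was hybridised with RNA of the TRA1 strain on 2 arrays in swapped dyes. Per the file headers, Feature Extraction version 7.5.1 gave the authors each spot's mean and local background intensity, uncorrected, and flags deposited as scores of 0 or 1. The deposited log10 ratios are red over green, and in the deposited value table, used as an alternative, the log10 ratios run mutant over reference: 100% of comparable spots equalled the turned dye-normalized log10 ratios within 1e-04, and column medians were 0.00274 to 0.0101.

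Intensities were corrected by normexp (offset 50) and loess-normalized within arrays in limma 3.58.1 (R 4.3.3, with version 1.17.8 of the data.table package), with the 544 control spots at weight 0. Control spots and outlier spots were then left out, and spots were averaged per gene. A gene needed a signal well above background in 1 dye on at least 2 arrays, which removed 2 genes, and a value on all 6 arrays, which 135 lacked. Current symbols were found for 5756 genes (92.0%) in the R64 annotation. No coordinates are printed, since the build of the array design is not given in the sources used here.

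The difference was a contrast in 1 fit of all 6 arrays with array number, which marks the dye orientation, as a block (2 residual and 3.50 prior degrees of freedom), with two-sided p-values adjusted by Benjamini-Hochberg over all tested genes. The number pairs the arrays by the labels' dye orientation; deviations of same-numbered arrays from their allele means correlated at 0.47 for tra1 P3408A with tra1 S3463A, 0.51 with tra1_SRR3413 and 0.93 between the other two. The fits without 1 tra1 P3408A array had 1 residual and infinite prior degrees of freedom. In them, 1 spread, taken from the other alleles, served all genes. The script was tested on simulated data. Only the spread between arrays is measured, which may be technical, and the number of arrays limits the precision. Named genes were the 8 of largest statistic in each direction, since under 5 passed, a fixed set (TRA1, LEU2, URA3, PHO5, ADH2, IMD2, HIS4) and up to 4 members per described list. The 12 of lowest and highest mean ratio were added after the values were seen. The members and lists were chosen with earlier results of these data known. Alternatives covered the block, slide, replicates, background correction, normalization, filters and the deposited values.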

Additional observations from a re-analysis of the deposited data

Results flagged for a closer look

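MIX23 and URA2 lay on opposite sides of the TRA1 reference in the 2 alleles. MIX23 was below it on both arrays of tra1 P3408A and above it on both arrays of tra1 S3463A, with a difference of -0.58 on the log2 scale, and URA2 did the same, with a difference of -0.48. The difference itself was tested in limma and did not pass, with an adjusted p of 0.902 for each. On the slide shared by the alleles the differences were -0.84 for MIX23 and -0.36 for URA2. Lying on opposite sides of the reference on every array already fixed that sign. In all, 51 of the 6119 tested genes had the alleles on opposite sides of the reference on every array.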

How the results depend on the processing

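The count of genes lower and higher in tra1 P3408A was 0 and 0 in limma under every setting tried except those without 1 array of tra1 P3408A. Leaving out each array in turn gave 0 to 1287 lower and 0 to 1061 higher genes. Of these, the fit without array 1 of tra1 P3408A called 1287 and 1061, and the fit without its array 2 called 60 and 87; there the lone array is assumed to vary as the other alleles did. Without the array number as a replicate block, 0 genes were lower and 0 higher, with 6 at an unadjusted p under 0.05 (88 with it), and the smallest adjusted p was 0.999. Over all settings but the 2 without a tra1 P3408A array, 6 to 418 genes had an unadjusted p under 0.05. With slide as a block, the difference turned to -0.30 for COX2, -0.38 for SCEI, -0.070 for AI1, -0.071 for ATP19 and -0.064 for TIM11. Within the shared slide, where dyes were not balanced and no test could be run, it was 0.22 for APE1, 0.010 for UGP1, -0.54 for COX2, -0.74 for SCEI, -0.29 for AI1, -0.26 for ATP19 and -0.17 for TIM11. The cause was not tested. For the 16 genes of largest statistic there were 336 recomputed values, among them the shared-slide values, which have no test. Of the 336, 291 kept direction and, where tested, side of the threshold. Another 12 reversed, and 6 of the shared-slide values moved by over the spread between arrays. The rest passed the threshold, all in the 2 fits that left 1 array of tra1 P3408A.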
